A study of Drosophila melanogaster with 4 samples.

Results

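The vacuolar H+ ATPase genes of Drosophila melanogaster were followed in sorted embryonic muscle precursors of 2 lines. Every gene whose name in the deposited table begins with Vha was taken as a member, which gave 32 of 17518 listed genes. The tested line was homozygous for salm[340], a mutant allele of the zinc finger transcription factor gene spalt major, and its reference was a line labelled WT. Both lines had 2 libraries, which the submitters call technical replicates. For both lines the egg collection took 3 h at 25 °C and ageing another 7 h, to stage 11. Homozygous embryos were picked by hand by their GFP, treated with elastase and homogenised, GFP-positive cells were sorted, and their polyA RNA was sequenced. The labels do not name the GFP reporters or the lesion of the allele, and they do not say whether the libraries come from separate sorts, so the p-values rest on a spread between libraries that may be technical.

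The vacuolar ATPase is a rotary proton pump. Its cytosolic V1 part hydrolyses ATP and turns a shaft, and the shaft turns a ring of proteolipids in the membrane-bound V0 part, where protons cross beside the large subunit a. The pump acidifies endosomes, lysosomes and the Golgi of all cells, and in insect epithelia such as the Malpighian tubules it also energises the plasma membrane. Many fly subunits are encoded by several paralogs, of which one is usually widely expressed and the rest are known mainly from the testis, the gut or the nervous system.

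The 32 members encode 14 kinds of subunit. There were 13 genes for 8 V1 subunits, 18 genes for 5 V0 subunits and 1 gene for the accessory subunit Ac45. They lie on every large chromosome arm, with 6 on 2L, 8 on 2R, 5 on 3L, 11 on 3R and 2 on X. Positions are those of the deposited table, build BDGP6. For each subunit with several genes, the paralog with the highest mean scaled level per kilobase over the 4 libraries was called the main one, and the others minor. This gave 8 main paralogs, 6 genes that are the sole one for their subunit, and 18 minor paralogs. Fragments that map to several genes were counted for each of them, so the levels and shares of similar paralogs may hold common reads. How many they hold was not tested.

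Total counts over listed genes were 15170218 and 15668621 in the salm[340] libraries and 21857295 and 20530119 in WT. Genes of the mitochondrial genome took 60.9% and 63.2% of counts in salm[340], against 24.8% and 29.3% in WT, so the nuclear genes were read less deeply in salm[340]. The members summed to 7068 and 7297 counts in salm[340] and to 22789 and 20666 in WT. Levels were therefore scaled by TMM (trimmed mean of M values) and given as CPM, the count relative to the scaled library total, and every difference is relative to the bulk of genes. With library size alone the median gene sat at -1.20 on the log2 scale. In sorted bulk RNA, fewer cells of a type and less RNA per cell cannot be told apart. The RNA of salm was at 93.3 and 97.8 CPM in salm[340], against 25.7 and 24.8 CPM in WT, and since the lesion is not stated this level does not check the labels.

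The label of muscle precursors was compared with 8 markers of these cells, all of them detected. Their summed level was 3520 and 3700 CPM in salm[340] and 2657 and 2672 CPM in WT. Of it, Act57B alone gave 1808 and 1916 CPM in salm[340] and 1546 and 1549 CPM in WT. At an edgeR adjusted p under 0.05, 5 of the 8 were called higher, among them the myosin heavy chain gene Mhc and the adhesion gene kirre. The uncalled ones were Mef2 (log2 fold change 0.10), twi (-0.25) and lmd (-0.19). Over all 10738 genes tested, 1078 were called higher and 769 lower. Markers of other cells were present too. The 6 nervous system markers summed to 165 and 196 CPM in salm[340] and 180 and 188 CPM in WT (1 higher, 2 lower), and the 8 hemocyte markers to 93.7 and 108 CPM in salm[340] and 119 and 125 CPM in WT (1 higher, 2 lower), with NimC1 and lz under 10 counts in every library. The 6 tubule and hindgut markers summed to 58.9 and 71.0 CPM in salm[340] and 53.6 and 56.7 CPM in WT (1 higher), the 4 midgut markers to 34.7 and 46.4 CPM in salm[340] and 51.8 and 54.6 CPM in WT (none called), and the 4 tracheal markers to 62.5 and 70.3 CPM in salm[340] and 58.8 and 62.6 CPM in WT (1 higher). The gene srp is in both the hemocyte and the midgut list, and Kr of the tubule list is also expressed in muscle founder cells. The part of these cells in the differences below was not tested.

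For 17 of the 22 testable genes of the pump the 95% interval of the difference lay within a 2-fold change. The same held for 5945 of all 10738 genes tested. The 2 genes of the pump that passed the test were both lower in salm[340]. They were VhaSFD, the gene of the regulatory V1 subunit H, and VhaPPA1-1, the gene of the V0 ring subunit c''. Of the 32 members, 22 had enough counts to be tested. None was called higher and 2 were called lower at an adjusted p under 0.05 in edgeR, which is 9.09% of those tested. Among all 10738 genes tested, 17.2% were called in either direction and 7.16% were called lower. The lowest main member averaged 15.4 CPM, and of the 4171 genes at or above that level 30.6% were called. At an unadjusted p under 0.05 stood 8 of the 22 members (5 positive, 3 negative), or 36.4%, beside 31.1% of all genes tested. The median log2 fold change of the tested members was 0.02, with a range of -2.38 to 0.39, and the median of all genes tested was -0.01. DESeq2 called none higher and 1 lower, beside 13.4% of all genes called in either direction.

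The 14 main or sole genes were measured with 170 to 5831 counts per library, and the 95% interval of each lay within a 2-fold change in either direction (a log2 difference between -1 and 1). For 8 of the 14 the interval lay within 0.5 on the log2 scale. Among genes at or above 15.4 CPM, 3809 of 4171 had an interval within 1, and 2003 had one within 0.5. The 14 Vha genes had a median log2 fold change of 0.06, with 9 positive and 5 negative.

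**Figure D1:**
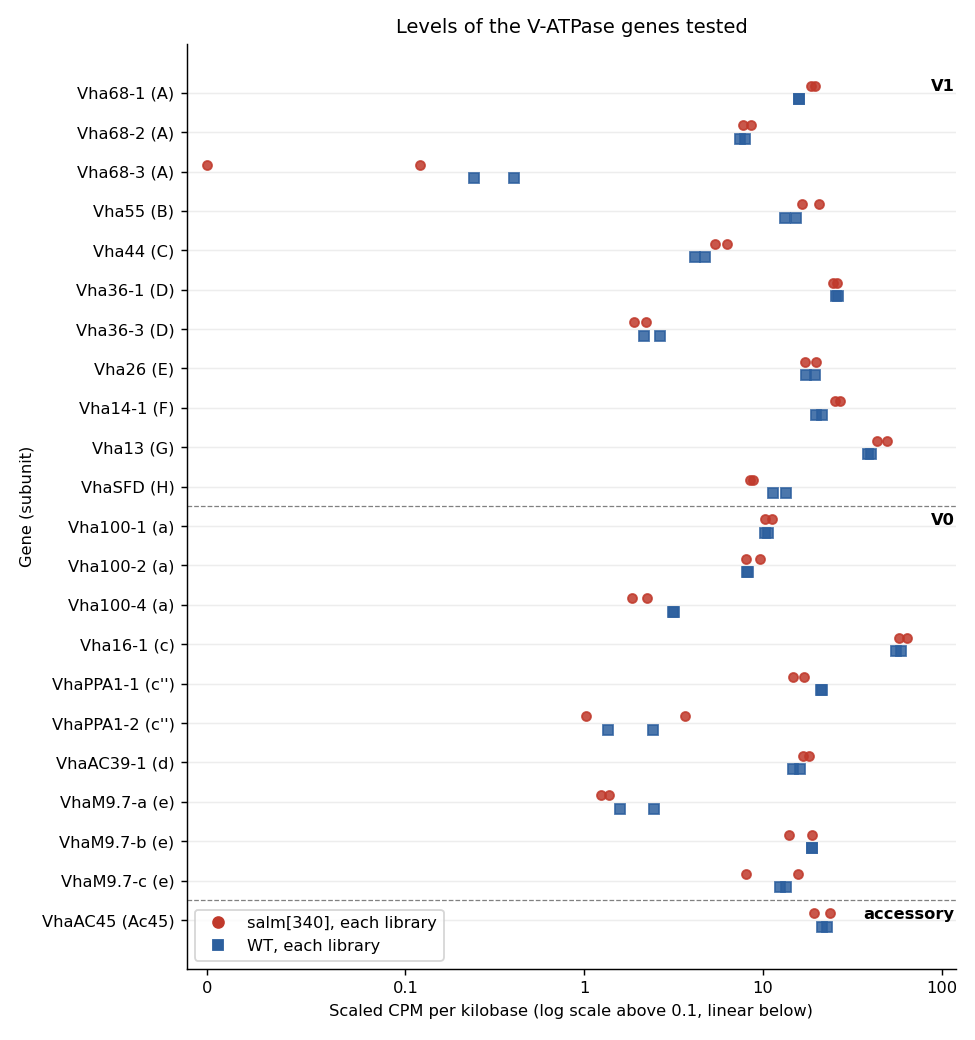
Scaled CPM per kilobase of the 22 tested members, 1 point per library, salm[340] as red circles above WT as blue squares in each row; the axis is logarithmic above 0.1 and linear below. Vha16-1 is the highest member in all 4 libraries, and VhaSFD and VhaPPA1-1 have both salm[340] libraries below both WT libraries.

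Subunit H, the single gene VhaSFD (FBgn0027779, 2L, 16722883 to 16727826, minus strand, 7 exon blocks), carried the difference with the smallest adjusted p. In yeast, subunit H is needed for ATP-driven pumping and silences V1 that has come off V0. VhaSFD had 24.9 and 23.8 CPM in salm[340], against 38.1 and 32.3 CPM in WT, from 255 and 242 counts in salm[340] and 1293 and 976 counts in WT. Both salm[340] libraries were below both WT libraries. The means were 24.4 ± 0.789 CPM in salm[340] and 35.2 ± 4.08 CPM in WT (SD, n = 2 each). The log2 fold change was -0.53 (SE 0.127, 95% interval -0.82 to -0.25, edgeR adjusted p = 0.0186), a level 0.69 times that of WT. The call was held in DESeq2 (adjusted p = 0.0318) and was lost without WT replicate 1 (-0.42, edgeR adjusted p = 0.465) and without WT replicate 2 (-0.65, edgeR adjusted p = 0.323), and each of those 2 fits called 14 genes in the whole table.

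Subunit c'' is the larger proteolipid that shares the rotating ring with the c subunits. Its main gene VhaPPA1-1 (FBgn0028662, 3R, 14902330 to 14904061, minus strand, 3 exon blocks) had 19.8 and 22.8 CPM in salm[340], against 28.9 and 28.7 CPM in WT. Both salm[340] libraries were again the lower ones. The means were 21.3 ± 2.11 CPM in salm[340] and 28.8 ± 0.197 CPM in WT (SD, n = 2 each). The log2 fold change was -0.43 (SE 0.128, 95% interval -0.72 to -0.15, edgeR adjusted p = 0.0444), a level 0.74 times that of WT. This value lies close to the threshold: DESeq2 gave an adjusted p of 0.126, and without WT replicate 1 (-0.43, edgeR adjusted p = 0.495) or WT replicate 2 (-0.45, edgeR adjusted p = 0.489) it did not pass. Its minor paralog VhaPPA1-2, which lies 2052 bases from it on the same strand, had 7 and 25 counts in salm[340] and 31 and 49 in WT, and its interval ran from -1.21 to 1.83.

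**Figure D2:**
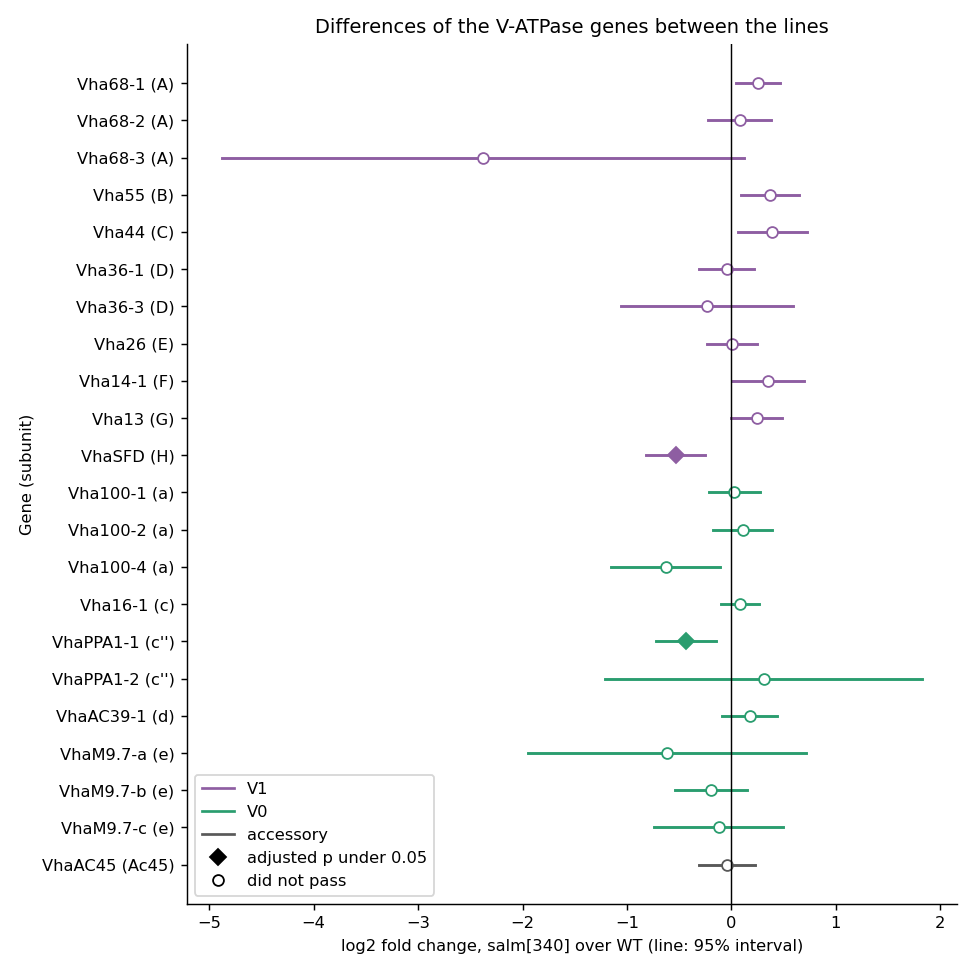
The log2 fold change of the 22 tested members, salm[340] over WT, with 95% intervals from edgeR; purple marks V1, green V0 and grey the accessory gene, and filled diamonds passed the test. VhaSFD (-0.53) and VhaPPA1-1 (-0.43) are the only filled symbols, and the widest interval belongs to the low gene Vha68-3.

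The catalytic head of V1 alternates subunits A and B, which hold the ATP sites. Subunit B has 1 gene, Vha55 (FBgn0005671, 3R, 12623762 to 12627829, minus strand), with 46.3 and 57.1 CPM in salm[340] and 37.2 and 42.8 CPM in WT. The salm[340] libraries were above the WT libraries, with a log2 fold change of 0.37 (SE 0.125, 95% interval 0.09 to 0.65), but the edgeR adjusted p was 0.0712. It came closest to the threshold among the members that did not pass. Without salm[340] replicate 1 it was at 0.50 and did pass (edgeR adjusted p = 2.78e-06), in a fit that called 33.0% of all genes. It was at 0.20 without salm[340] replicate 2 (edgeR adjusted p = 0.122), at 0.27 without WT replicate 1 (edgeR adjusted p = 0.644) and at 0.47 without WT replicate 2 (edgeR adjusted p = 0.472), and did not pass in these.

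Subunit A was read mainly from Vha68-1 (FBgn0265262, 2L, 13000770 to 13004107, minus strand), which had 49.5 and 52.2 CPM in salm[340] and 42.7 and 42.4 CPM in WT. Its log2 fold change was 0.26 (SE 0.0957, 95% interval 0.04 to 0.47, edgeR adjusted p = 0.0996). Its paralog Vha68-2 had 23.8 and 21.3 CPM in salm[340] and 20.6 and 21.97 CPM in WT, so the lines overlapped (log2 fold change 0.08, 95% interval -0.22 to 0.38). Per kilobase, Vha68-1 made up 68.2% and 71.3% of the subunit A level in salm[340] and 67.4% and 65.4% in WT. The third gene, Vha68-3, begins 178 bases after Vha68-2 on the same strand. It had 0 and 3 counts in salm[340] and 20 and 30 in WT, and its log2 fold change of -2.38 had an interval of -4.88 to 0.12 (edgeR adjusted p = 0.182). It was at -1.41 without salm[340] replicate 1 (edgeR adjusted p = 0.341) and at -7.30 without salm[340] replicate 2 (edgeR adjusted p = 0.0248), where the library left has 0 counts and the fitted value depends on the prior count.

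Subunits D and F form the shaft that turns inside the head. The single-exon gene Vha36-1 (subunit D, 2R, 15541435 to 15542498) had 26.2 and 27.6 CPM in salm[340] and 28.0 and 27.4 CPM in WT, overlapping. The log2 fold change was -0.05 (SE 0.116, 95% interval -0.31 to 0.21, edgeR adjusted p = 0.832). Vha36-1 made up 92.9% and 92.2% of the subunit D level in salm[340] and 90.8% and 92.3% in WT, with Vha36-3 as the rest. Vha14-1 (subunit F, 2R, 15679426 to 15680084), also with 1 exon block, had 17.9 and 16.7 CPM in salm[340] and 13.0 and 14.1 CPM in WT. The salm[340] libraries were the higher ones, but the log2 fold change of 0.35 (SE 0.155, 95% interval 0.01 to 0.70) did not pass (edgeR adjusted p = 0.155).

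Subunits E and G build the outer stalks that hold the head still, and subunit C joins them to the membrane part. Vha26 (subunit E, 3R, 5591763 to 5595356) had 57.7 and 50.4 CPM in salm[340] and 50.8 and 57.0 CPM in WT, a log2 fold change of 0.004 (SE 0.108, 95% interval -0.24 to 0.24, edgeR adjusted p = 0.985). Vha13 (subunit G, 3R, 19643018 to 19644386) had 41.1 and 46.9 CPM in salm[340] and 38.0 and 36.3 CPM in WT (log2 fold change 0.24, SE 0.108, 95% interval 0.00 to 0.49, edgeR adjusted p = 0.160). Vha44 (subunit C, 2R, 16324813 to 16336637) had 21.6 and 25.3 CPM in salm[340] and 19.0 and 16.7 CPM in WT, the highest log2 fold change of the 22 members at 0.39 (SE 0.146, 95% interval 0.07 to 0.72, edgeR adjusted p = 0.0980). For Vha13 and Vha44 the salm[340] libraries lay above those of WT, and for Vha26 the lines overlapped. Of the exon bases of Vha44, 148 (3.68%) are shared with Hmgs on the opposite strand, and the counting did not use strand.

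In V0, protons pass between the ring and the large subunit a. Its genes Vha100-1 and Vha100-2 shared most of the level. Vha100-1 (3R, 29131193 to 29137980), known for its role at synapses, had 33.7 and 36.8 CPM in salm[340] and 33.8 and 35.3 CPM in WT, a log2 fold change of 0.03 (SE 0.109, 95% interval -0.21 to 0.27, edgeR adjusted p = 0.889). Vha100-2 (3R, 18390323 to 18399169) had 30.9 and 26.1 CPM in salm[340] and 26.3 and 26.6 CPM in WT, an interval of -0.17 to 0.39. For both, the lines overlapped. Vha100-4, known from the acid-secreting copper cells of the midgut, lies 517 bases from Vha100-2 on the same strand and had 5.08 and 6.10 CPM in salm[340] and 8.73 and 8.58 CPM in WT. Both salm[340] libraries were below WT, and the log2 fold change of -0.63 (SE 0.234, 95% interval -1.15 to -0.11) did not pass (edgeR adjusted p = 0.0982). It gave 8.59% and 10.4% of the subunit a level in salm[340] and 14.8% and 14.2% in WT.

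The ring itself rests on Vha16-1 (FBgn0262736, 2R, 6625242 to 6633090, minus strand), the gene of subunit c. It was the most abundant member per kilobase, at 58.0 and 63.9 CPM per kb in salm[340] and 55.9 and 59.2 CPM per kb in WT. The lines overlapped. From 1826 and 1997 counts in salm[340] and 5831 and 5497 in WT, the log2 fold change was 0.08 (SE 0.0805), with an interval of -0.10 to 0.26, the narrowest among the members (edgeR adjusted p = 0.533). The other c genes, Vha16-2 to Vha16-5, had at most 12 counts in any library, and Vha16-1 held 98.2% or more of the subunit c level in each library.

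Subunit d couples the shaft to the ring. Its main gene VhaAC39-1 (X, 3880748 to 3882967) had 30.0 and 32.4 CPM in salm[340] and 26.3 and 28.9 CPM in WT, a log2 fold change of 0.18 (SE 0.118, 95% interval -0.09 to 0.44, edgeR adjusted p = 0.355). The salm[340] libraries were higher, by less than the test could separate. The small subunit e was read from VhaM9.7-b and VhaM9.7-c. VhaM9.7-b (3L, 21539862 to 21541215) had 17.1 and 22.8 CPM in salm[340] and 22.9 and 22.8 CPM in WT, a log2 fold change of -0.19 (SE 0.156, 95% interval -0.54 to 0.15, edgeR adjusted p = 0.443). VhaM9.7-c had 13.4 and 6.79 CPM in salm[340] and 11.4 and 10.5 CPM in WT. For VhaM9.7-c the salm[340] libraries lay on either side of both WT libraries, and it held 50.6% and 28.6% of the subunit e level in salm[340], against 38.5% and 37.9% in WT. The third e gene, VhaM9.7-a, had 0.978 and 0.886 CPM in salm[340] and 1.74 and 1.13 CPM in WT, and its interval ran from -1.95 to 0.71.

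**Figure D3:**
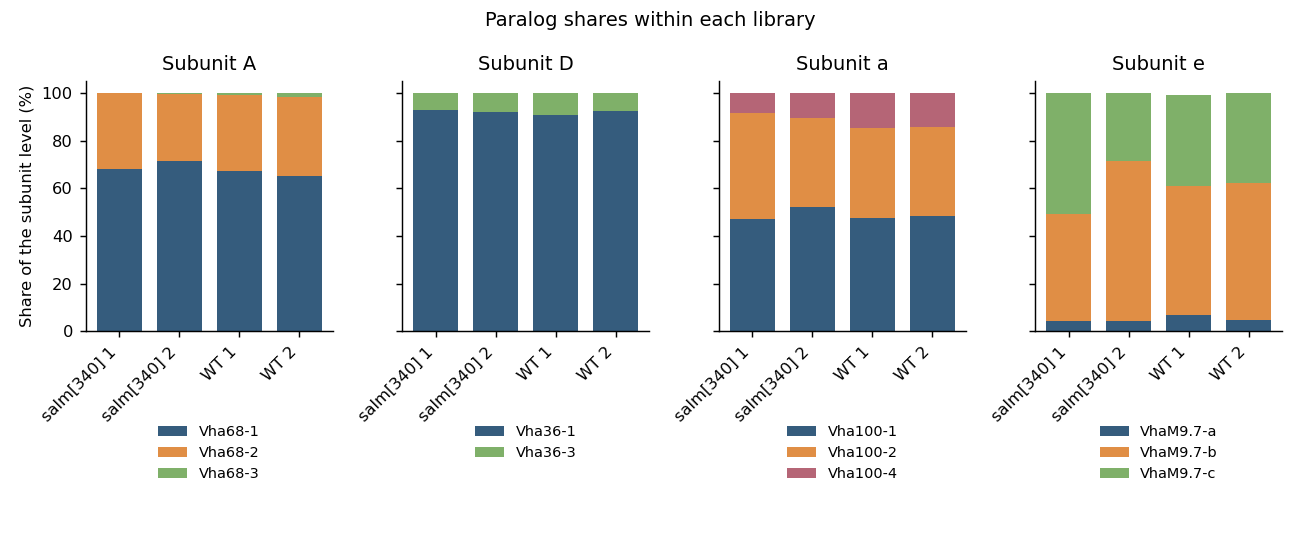
Share of each subunit's level per kilobase held by its paralogs, 1 bar per library, for subunits A, D, a and e; paralogs under 1% in all 4 libraries are not drawn. Vha68-1 holds 65.4% to 71.3% of subunit A and Vha36-1 at least 90.8% of subunit D in each library, while the 2 salm[340] libraries differ most in subunit e. Fragments that map to several genes count for each of them.

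Ac45 is a glycoprotein that accompanies the pump through the secretory pathway. Its gene VhaAC45 (2R, 9207561 to 9209774, plus strand) had 48.0 and 38.8 CPM in salm[340] and 46.1 and 43.0 CPM in WT, overlapping, with a log2 fold change of -0.04 (SE 0.12, 95% interval -0.31 to 0.23, edgeR adjusted p = 0.865). A second accessory gene, ATP6AP2, also called the prorenin receptor gene, falls outside the name rule. It was at 55.3 and 51.8 CPM in salm[340] and 55.4 and 51.9 CPM in WT, a log2 fold change of -0.003 with an interval of -0.22 to 0.21. CG31030, a relative of Ac45 that the current annotation names VhaAC45RP, was at 17.8 and 18.1 CPM in salm[340] and 17.7 and 15.6 CPM in WT (interval -0.22 to 0.44).

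The 10 members that did not reach the test were all minor paralogs with at most 18 counts in any library. Vha36-2, Vha100-5 and Vha16-4 had 0 counts in all 4 libraries, which allows up to 0.293 and 0.295 CPM in salm[340] and up to 0.0884 and 0.0994 CPM in WT. The limit covers counting error only. Vha100-3, Vha16-3, Vha16-5 and VhaM9.7-d had 0 counts in both salm[340] libraries and at most 12 in WT. Vha14-2 had 7 and 0 counts in salm[340] and 5 and 4 in WT, and VhaAC39-2 had 7 and 6 in salm[340] and 6 and 18 in WT. Vha16-2 had 0 and 7 counts in salm[340] and 2 and 0 in WT, the same 4 numbers as the antisense gene asRNA:CR46049, which covers 84.5% of its exon bases, so its reads cannot be assigned to either strand. Of these 10 genes, 5 have a single exon block, as do 2 of the 14 main or sole genes.

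Summed per kilobase, all 32 members reached 343 and 356 CPM per kb in salm[340], against 336 and 338 CPM per kb in WT. As a plain share of nuclear counts, without TMM or length, the members were lower in salm[340]. That share was 0.119% and 0.126% in salm[340], against 0.139% and 0.142% in WT, so the direction of the total depends on the measure. The V1 genes summed to 175 and 183 CPM per kb in salm[340] and to 162 and 163 CPM per kb in WT, and the V0 genes to 144 and 154 CPM per kb in salm[340] and to 151 and 154 CPM per kb in WT. A ratio within a library does not depend on how libraries are scaled to one another. The V1 sum was 1.217 and 1.191 times the V0 sum in salm[340] and 1.072 and 1.053 times in WT, and the lines did not overlap. With 2 libraries against 2 no exact permutation test can pass, so this is a description. Of the 8 main or sole V1 genes, 6 had a positive and 2 a negative log2 fold change (median 0.25), and of the 5 in V0, 3 were positive and 2 negative (median 0.03).

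The same view was taken of VhaSFD, VhaPPA1-1 and the uncalled Vha100-4, with pairs chosen after their values had been seen. VhaSFD stood at 0.152 and 0.132 of the Vha16-1 level in salm[340] and at 0.241 and 0.193 in WT. VhaPPA1-1 stood at 0.253 and 0.264 of the Vha16-1 level in salm[340] and at 0.383 and 0.358 in WT. Vha100-4 stood at 0.194 and 0.276 of the Vha100-2 level in salm[340] and at 0.392 and 0.381 in WT. In all 3 pairs both salm[340] values were below both WT values. VhaSFD, VhaPPA1-1 and Vha100-4 alone were already lower on the scaled CPM, so the pairs are no separate test. Among single genes on the scaled CPM, the libraries of the lines did not overlap for 11 of 22 tested members (50.0%, 6 above and 5 below in salm[340]), beside 59.1% of all genes tested.

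**Figure D4:**
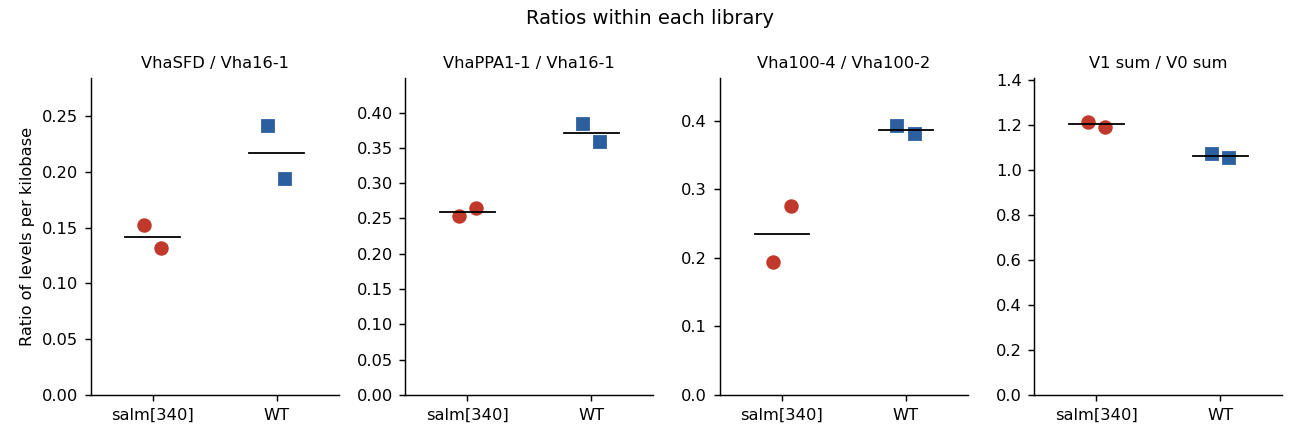
Ratios of levels per kilobase within each library for VhaSFD and VhaPPA1-1 over Vha16-1, Vha100-4 over Vha100-2 and the V1 sum over the V0 sum; points are libraries, lines are means, and axes start at 0. The first 3 ratios are lower and the last is higher in both salm[340] libraries than in both WT libraries. The first 3 pairs were chosen after their values had been seen.

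The calls among the members moved with the library left out. Without salm[340] replicate 1, edgeR called 4 members higher (Vha68-1, Vha55, Vha44 and Vha13) and 3 lower (VhaSFD, VhaPPA1-1 and VhaM9.7-c), beside 33.0% of all genes. Without salm[340] replicate 2 it called 0 higher and 5 lower (VhaSFD, VhaPPA1-1, VhaM9.7-b, Vha100-4 and Vha68-3), beside 31.2% of all genes. VhaM9.7-c was at -0.70 in the first of these fits and at 0.27 in the second. VhaM9.7-b was at -0.01 in the first and -0.43 in the second, and Vha100-4 at -0.51 and -0.78. The median log2 fold change of the tested members was -0.01 without WT replicate 1 and 0.07 without WT replicate 2. No member was called in either of these fits, which called almost no gene of the whole table. Each such fit assumes that a lone library varies as the 2 libraries of the other line do. With library size alone 21 of the 22 were called lower, where the median gene was at -1.20.

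Other genes of the pathway were taken from lists of acidification, lysosome and ion transport genes, and their counts are to be read beside the 1078 higher and 769 lower calls among all 10738 genes tested. Among 7 regulators of acidification, 2 were higher and 0 lower, with a median log2 fold change of 0.03. These were Rbcn-3A (0.40, edgeR adjusted p = 0.0224), a subunit of the rabconnectin complex that helps V1 join V0, and sky (0.52, edgeR adjusted p = 0.00876), which encodes a TLDc-domain protein of synaptic endosomes. The partner of Rbcn-3A, Rbcn-3B, was at 17.0 and 14.2 CPM in salm[340] and 19.5 and 17.7 CPM in WT and did not pass.

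Of 13 lysosome genes tested, 6 were lower and 1 was higher, beside 7.16% of all genes called lower, with a median of -0.38. Of genes at or above 15.4 CPM, 30.6% were called in either direction, and the 6 lower lysosome genes averaged above that level. The lower ones were the protease genes cathD (-0.72) and Cp1 (-0.38), the tetraspanin gene Tsp42Ee (-0.50), the calcium channel gene Trpml (-0.50), the sterol transporter gene Npc1a (-0.49) and the membrane protein gene Lamp1 (-0.35), with edgeR adjusted p between 0.00539 and 0.0444. The mannosidase gene LManII was the one that rose (1.17, edgeR adjusted p = 0.00144). Hemocytes also express lysosomal genes, and their markers went in both directions in the same libraries. Of the 6 tested, Pxn (-1.22) and Col4a1 (-0.34) were lower and PPO2 (1.30) was higher, while Hml (1.51), crq (-0.03) and srp (-0.51) did not pass. Their part was not tested.

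Among 15 genes of TORC1, the growth kinase complex at the lysosome, and of Mitf, the factor known to activate fly Vha genes, 2 were higher and 0 lower (median 0.13). They were gig (0.58, edgeR adjusted p = 0.0444), which encodes the TORC1 inhibitor Tsc2, and the folliculin gene BHD (1.48, edgeR adjusted p = 0.000751), whose salm[340] libraries spread widely at 356 and 208 CPM, against 104.1 and 97.5 CPM in WT. Mitf had 6.06 and 6.59 CPM in salm[340] and 3.36 and 4.54 CPM in WT. It differed by 0.68 on the log2 scale (SE 0.293, edgeR adjusted p = 0.15) and did not pass.

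Of 14 genes of endosomal fusion, 0 were higher and 1 was lower (median -0.11), the syntaxin gene Syx7 (-0.72, edgeR adjusted p = 0.0476). Of 13 tested ion transport partners, 0 were higher and 3 lower (median -0.22): nrv2, a sodium pump beta subunit gene (-0.43, edgeR adjusted p = 0.00785), the exchanger gene Nhe2 (-0.47, edgeR adjusted p = 0.0254) and the carbonic anhydrase gene CAH2 (-1.38, edgeR adjusted p = 0.0262). The mitochondrial ATP synthase, the other rotary ATPase of the cell, had 9 of its 13 genes higher and 0 lower (median 0.35), beside 1078 of 10738 genes higher. Of genes at or above 15.4 CPM, 30.6% were called in either direction. All 13 ATP synthase genes averaged above that level. The 4 with the smallest p were ATPsynCF6 (0.83), ATPsynE (0.71), ATPsynO (0.66) and ATPsynB (0.43), with edgeR adjusted p between 9.12e-05 and 0.00422. The share of mitochondrial counts was higher in the same libraries, and its part was not tested. The differences between these lists and the Vha genes were not tested.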

How the data were processed

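PolyA RNA of sorted cells was sequenced in 4 libraries. Per the submitters' processing notes the tools include cutadapt 2.4 and STAR 2.5.4b, with build BDGP6. Per the file headers, the authors counted fragments with featureCounts 2.0.1 on Ensembl release 104, counting multi-mapping and multi-overlapping fragments for every feature, without strand, with at least 10 shared bases. The deposited values are raw counts.

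Groups came from the titles. In R 4.3.3, edgeR 4.0.16 tested every gene that passed filterByExpr (glmQLFTest on TMM-scaled libraries), with Benjamini-Hochberg adjustment over all of them and calls at 0.05. SE is the log2 fold change over the root of F. CPM per kb divides by all exon bases of a gene, so genes with short transcripts read low. DESeq2 1.42.0 was an alternative. The test was tried on simulated data. Members, lists and pairs were chosen with earlier results of these data known. Of 81 list entries 70 matched by symbol and 7 by another name. All members are named, with full values for called and main genes, and up to 4 called genes per list. All 6 lower lysosome genes, Rbcn-3B, Mitf, the uncalled hemocyte and muscle markers and the accessory relatives were exceptions, named after their values were seen. Promoter motifs were not analysed here.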

Additional observations from a re-analysis of the deposited data

How the results depend on the processing

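With size factors of DESeq2 in edgeR, upper-quartile factors, mitochondrial genes left out or at least 10 counts in 2 libraries, the 2 members called stayed VhaSFD and VhaPPA1-1. Over these and the other settings apart from library size alone, VhaSFD ranged from -0.65 to -0.42 and VhaPPA1-1 from -0.55 to -0.35. With library size alone 8361 genes were called in either direction. Of these, 21 members (11 in V1, 9 in V0) and 67 list genes were lower and 0 list genes higher. The medians were then -1.17 for the members, -1.11 for V1 and -1.24 for V0, and the log2 ratios of the summed levels were -1.14, -1.05 and -1.23. Members at or above 0 with TMM fell below it: Vha68-1 was at -0.94, Vha68-2 at -1.11, Vha55 at -0.82, Vha44 at -0.80, Vha26 at -1.18, Vha14-1 at -0.84, Vha13 at -0.95, Vha100-1 at -1.16, Vha100-2 at -1.08, Vha16-1 at -1.11, VhaPPA1-2 at -0.88 and VhaAC39-1 at -1.02. Library size counts the mitochondrial genes. Vha68-2, Vha26, Vha100-1 and Vha100-2, near 0 with TMM and never called otherwise, also changed sign in some other settings, reaching -0.11 in Vha26 without salm[340] replicate 1. VhaAC45 and VhaM9.7-c changed sign too, VhaAC45 from -0.04 to 0.09 without salm[340] replicate 2. The low gene VhaPPA1-2 moved further, from 0.31 to -0.89 without salm[340] replicate 2 and to 0.95 without salm[340] replicate 1. DESeq2 called 1 member lower and 0 in V0, beside 1443 genes in all. The cause was not tested. Without a filter on low counts Vha55 was called, so 1 member and 1 V1 gene were higher, and the V1 median was 0.13. With the replicate block, again 1 member, the V1 gene Vha55, was higher and 2 lower (2256 genes in all); the correlation of deviations between same-numbered libraries was 0.0417, so the numbers were not taken as pairs. Leaving out 1 library at a time gave 14 to 3803 genes, 0 to 4 members higher and 0 to 5 lower, 0 to 4 V1 genes higher and 0 to 2 lower, 0 to 3 V0 genes lower, 0 to 20 list genes higher and 0 to 16 lower, with V1 medians of -0.01 to 0.13. Of the 22 tested members, 6 had an interval wider than 0.5 to either side. They include genes of few counts such as Vha68-3, and VhaM9.7-c with 137 and 69 counts in salm[340]. The parts of depth and of the spread between libraries were not tested.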
